A study of Arabidopsis thaliana with 6 samples.

Results

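Phosphatidylinositol phosphate kinases of the PIP5K family and EXO70 subunits of the exocyst are working parts of the secretion machinery at the tip of a pollen tube. The 9 genes described here are PIP5K genes and pollen EXO70 genes, chosen by identifier after earlier results of these data had been seen. They come from 33323 gene identifiers counted in pollen tube/style complexes of Arabidopsis thaliana. There are 6 kinases, PIP5K2 (AT1G77740), PIP5K4 (AT3G56960), PIP5K5 (AT2G41210), PIP5K6 (AT3G07960), PIP5K10 (AT4G01190) and PIP5K11 (AT1G01460), and 3 exocyst subunits, EXO70A2 (AT5G52340), EXO70C1 (AT5G13150) and EXO70C2 (AT5G13990). RNA came from cut styles into which pollen tubes had grown, in 3 libraries of the paps1-1 mutant and 3 libraries of wild-type Col-0. The gene mutated in paps1-1, PAPS1, codes for one of the nuclear poly(A) polymerases, which put poly(A) tails on messenger RNAs. The labels do not say whether the tubes, the styles or both carried the mutation, and they call only the wild-type replicates biological. The p-values therefore rest on library-to-library spread, which may be technical.

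PIP5K enzymes phosphorylate phosphatidylinositol monophosphate to phosphatidylinositol bisphosphate, a rare lipid of the plasma membrane. In pollen tubes this lipid is concentrated near the tip, where it recruits proteins of secretion, endocytosis and the actin cytoskeleton. The exocyst is a protein complex that tethers secretory vesicles to the plasma membrane, and its EXO70 subunits, which bind such lipids in several organisms, form a large family in plants.

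Several of these genes have close relatives, and reads that match more than 1 copy bear on how well their counts can be told apart. For 4 pairs of relatives, the longest identical stretch of their coding sequences is shown in capitals, with 12 bases on either side in lower case, 5′ to 3′ on the coding strand, from the RefSeq annotation of TAIR10.1. The PIP5K4 stretch covers bases 955 to 986 of its coding sequence and the PIP5K5 stretch bases 949 to 980. The PIP5K10 stretch covers bases 410 to 433 and the PIP5K11 stretch bases 404 to 427. PIP5K2 is set beside PIP5K1, its closest relative, and EXO70C2 beside EXO70C1.
PIP5K4: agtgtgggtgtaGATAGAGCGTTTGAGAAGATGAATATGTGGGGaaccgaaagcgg
PIP5K5: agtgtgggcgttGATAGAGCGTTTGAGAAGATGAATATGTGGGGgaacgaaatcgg
PIP5K10: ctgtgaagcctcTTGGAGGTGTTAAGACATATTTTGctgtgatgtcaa
PIP5K11: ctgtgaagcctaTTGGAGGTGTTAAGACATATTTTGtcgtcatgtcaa
PIP5K2: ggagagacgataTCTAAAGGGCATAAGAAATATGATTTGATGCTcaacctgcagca
PIP5K1: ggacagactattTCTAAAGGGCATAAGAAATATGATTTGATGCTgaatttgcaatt
EXO70C2: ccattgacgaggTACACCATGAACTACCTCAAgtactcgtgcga
EXO70C1: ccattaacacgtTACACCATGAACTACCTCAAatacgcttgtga
PIP5K4 and PIP5K5 were identical at 85.9% of aligned coding bases and shared no run longer than 32 bases. PIP5K10 and PIP5K11 were identical at 76.8% of aligned bases, with a longest run of 24 bases. PIP5K2 and PIP5K1 were identical at 83.5%, with a run of 32 bases, and EXO70C2 and EXO70C1 at 63.4%, with a run of 20 bases. Of the genes not shown, EXO70A2 was closest to EXO70A3 (77.7% of aligned bases, a run of 21 bases), which was near 0 in every library, and PIP5K6 to PIP5K4 (71.5%, a run of 23 bases). The read length is not given in the sources used here, so the part of the reads that fell within such runs was not assessed.

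The paps1-1 libraries held 4541233 to 18717968 reads assigned to genes, against 13707799 to 21031017 in the wild-type libraries. Replicate 2 of paps1-1 was the shallowest library, and 74.6% of its reads mapped to several places, against 7.28% to 28.0% in the other libraries. At these depths 3 reads corresponded to 0.152 to 0.638 CPM (counts scaled to library size by the TMM method), and such limits cover counting error only. PAPS1 itself had 88.4, 99.4 and 59.9 CPM in the 3 paps1-1 libraries, against 143, 101 and 104 CPM in the 3 wild-type libraries. The PAPS1 groups did not overlap, but the difference did not pass the test (log2 fold change -0.49 ± 0.28 SE, adjusted p = 0.609, edgeR quasi-likelihood test).

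All 9 genes were expressed above the filter on low counts. Only PIP5K11 passed the test in the comparison of paps1-1 with wild type, and it was lower in paps1-1. Of all 18317 tested genes, 2.34% were called at an adjusted p under 0.05, with 1.18% called lower and 1.16% called higher (edgeR quasi-likelihood test, Benjamini-Hochberg adjustment). Of the 9 genes, 6 had a negative log2 fold change and 3 a positive one, with a median of -0.22, beside a median of 0.03 over all tested genes, of which 46.5% were negative. With library factors taken from pollen tube markers instead, 3 of the 9 genes were negative, beside 23.1% of all tested genes, whose median log2 fold change was then 0.26. DESeq2, which called 3.39% of its tested genes, also called PIP5K11 alone of the 9. With limma-voom, 387 of the 18317 tested genes were called. None of the 8 genes other than PIP5K11 was called by edgeR, DESeq2 or limma-voom, and 0 of these 8 had an unadjusted p under 0.05 in edgeR. The share of all tested genes with an unadjusted p under 0.05 is not given here. Counts at that level, here and below, therefore have no background beside them.

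**Figure D1:**
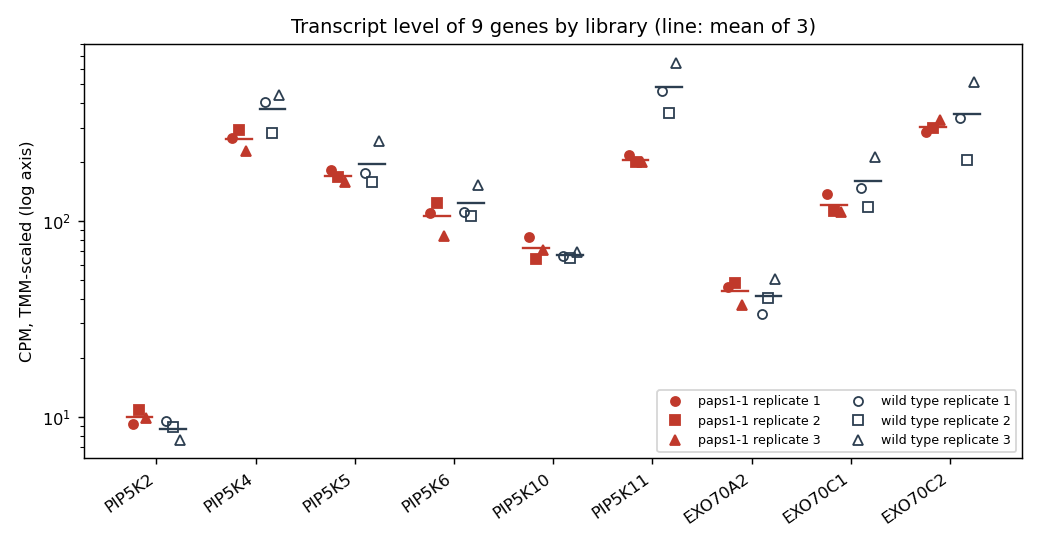
Level of each of the 9 genes in CPM (log axis), with 1 point per library and a bar at the mean of the 3 libraries, paps1-1 left of wild type. PIP5K11 is the gene whose 3 paps1-1 points, at 199 to 218 CPM, all lie below its 3 wild-type points, at 355 to 644 CPM, and the points of the other 8 genes overlap between genotypes.

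PIP5K11 and PIP5K10 are the short PIP5K enzymes, which have been linked to the actin cytoskeleton of the pollen tube tip. PIP5K11 had 218, 201 and 199 CPM in the 3 paps1-1 libraries, against 459, 355 and 644 CPM in the 3 wild-type libraries. The groups did not overlap, which was the case for 14.7% of all tested genes, 7.82% being lower in paps1-1, and the 3 wild-type values were spread more widely than the 3 paps1-1 values. Its mean was 206 ± 10.4 CPM in paps1-1 and 486 ± 146 CPM in wild type (SD, n = 3 libraries each). This was a log2 fold change of -1.24 ± 0.30 (SE), or 2.36-fold lower in paps1-1, with an adjusted p of 0.0425 in the edgeR quasi-likelihood test. The call was close to the threshold. The adjusted p in edgeR was 0.0743 without wild-type replicate 1, 0.0581 without wild-type replicate 3, and 0.146, 0.202 and 0.171 without paps1-1 replicates 1, 2 and 3, each time with the same direction. Over 16 alternative settings the log2 fold change of PIP5K11 ranged from -1.42 to -0.89 and its adjusted p from 3.49e-04 to 0.252.

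PIP5K10 had 83.3, 64.0 and 71.2 CPM in the paps1-1 libraries, against 66.1, 65.0 and 69.1 CPM in the wild-type libraries. The groups overlapped, and the wild-type values lay within a coefficient of variation of 3.20%, the smallest among the 9 genes. Its log2 fold change was 0.13 ± 0.24 (SE), with an adjusted p of 0.940 in the edgeR quasi-likelihood test. Per kilobase of coding sequence, the level of PIP5K11 was 2.52, 3.02 and 2.70 times that of PIP5K10 in the paps1-1 libraries, against 6.69, 5.26 and 8.96 times in the wild-type libraries. The ratio of this pair was lower in every paps1-1 library than in every wild-type library. It rests on the same PIP5K11 values as above, and the share of gene pairs separated in this way was not assessed.

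PIP5K4 and PIP5K5 are the kinases linked to pectin secretion and tube growth. PIP5K4 had 265, 291 and 229 CPM in the paps1-1 libraries, against 404, 283 and 440 CPM in the wild-type libraries. Wild-type replicate 2 fell within the paps1-1 range, and the other wild-type libraries lay above it. The log2 fold change of PIP5K4 was -0.52 ± 0.29 (SE), with an adjusted p of 0.599 in the edgeR quasi-likelihood test. PIP5K5 had 182, 167 and 158 CPM in the paps1-1 libraries, against 175, 158 and 258 CPM in the wild-type libraries. Only wild-type replicate 3 lay above the paps1-1 values, and the log2 fold change was -0.22 ± 0.28 (SE), with an adjusted p of 0.896 in the edgeR quasi-likelihood test. The level per coding length of PIP5K4 was 1.53 ± 0.16 times that of PIP5K5 in paps1-1 and 1.92 ± 0.32 times in wild type (SD, n = 3 libraries each), and these ranges overlapped.

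PIP5K6 has been linked to clathrin-dependent endocytosis in pollen tubes. It had 110, 124 and 83.6 CPM in the paps1-1 libraries, against 112, 106 and 153 CPM in the wild-type libraries. The groups overlapped, with a log2 fold change of -0.23 ± 0.27 (SE) and an adjusted p of 0.884 in the edgeR quasi-likelihood test. PIP5K2, a kinase also known from vegetative tissues such as roots, was the least abundant of the 9 genes. It had 9.14, 10.9 and 9.86 CPM in the paps1-1 libraries, against 9.50, 8.91 and 7.65 CPM in the wild-type libraries. Wild-type replicate 1 lay within the paps1-1 range and the other wild-type libraries below it, and the log2 fold change was 0.19 ± 0.25 (SE), with an adjusted p of 0.905 in the edgeR quasi-likelihood test.

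Among the exocyst subunits, EXO70A2 acts in exocytosis during pollen germination and tube growth. It had 46.2, 48.3 and 37.3 CPM in the paps1-1 libraries, against 33.5, 40.5 and 50.4 CPM in the wild-type libraries. The highest and the lowest of these values were both in wild type. The log2 fold change of EXO70A2 was 0.08 ± 0.24 (SE), with an adjusted p of 0.967 in the edgeR quasi-likelihood test.

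EXO70C1 and EXO70C2 are a related pair, of which EXO70C2 is needed for normal pollen tube growth. EXO70C1 had 137, 113 and 111 CPM in the paps1-1 libraries, against 148, 118 and 213 CPM in the wild-type libraries. Wild-type replicate 2 lay within the paps1-1 range and the other wild-type libraries above it, and the log2 fold change was -0.40 ± 0.28 (SE), with an adjusted p of 0.732 in the edgeR quasi-likelihood test. EXO70C2 had 286, 297 and 327 CPM in the paps1-1 libraries, against 337, 206 and 514 CPM in the wild-type libraries. The wild-type values of EXO70C2 enclosed all 3 paps1-1 values, with coefficients of variation of 7.07% in paps1-1 and 43.9% in wild type. Its log2 fold change was -0.22 ± 0.33 (SE), with an adjusted p of 0.922 in the edgeR quasi-likelihood test. Per coding length, EXO70C2 stood at 2.40 ± 0.41 times EXO70C1 in paps1-1 and 2.02 ± 0.34 times in wild type (SD, n = 3 libraries each), with overlapping ranges.

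Levels were compared between genes as CPM per kilobase of the longest coding sequence. PIP5K11 was the most abundant of the 9 genes, with 160 ± 8.09 CPM per kilobase in paps1-1 and 379 ± 114 in wild type (SD, n = 3 libraries each). Averaged over the 6 libraries, PIP5K11 stood at 270 CPM per kilobase, ahead of EXO70C2 at 157, PIP5K4 at 136 and PIP5K5 at 78.9. EXO70C1 followed at 71.4, PIP5K10 at 56.5, PIP5K6 at 53.4, EXO70A2 at 22.5 and PIP5K2 at 4.11 CPM per kilobase. In paps1-1 the ranges of PIP5K11 and EXO70C2 overlapped, at 155 to 170 and 137 to 157 CPM per kilobase, whereas in wild type the lowest PIP5K11 value, 277, was above the highest EXO70C2 value, 246. EXO70C2 and PIP5K4 overlapped in wild type, and PIP5K10 and PIP5K6 overlapped in both genotypes, so the order within these pairs did not exceed the spread. PIP5K5 and EXO70C1 also overlapped in both genotypes, EXO70C1 and PIP5K10 overlapped in paps1-1, and EXO70A2 and PIP5K2 stood apart from all others.

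**Figure D2:**
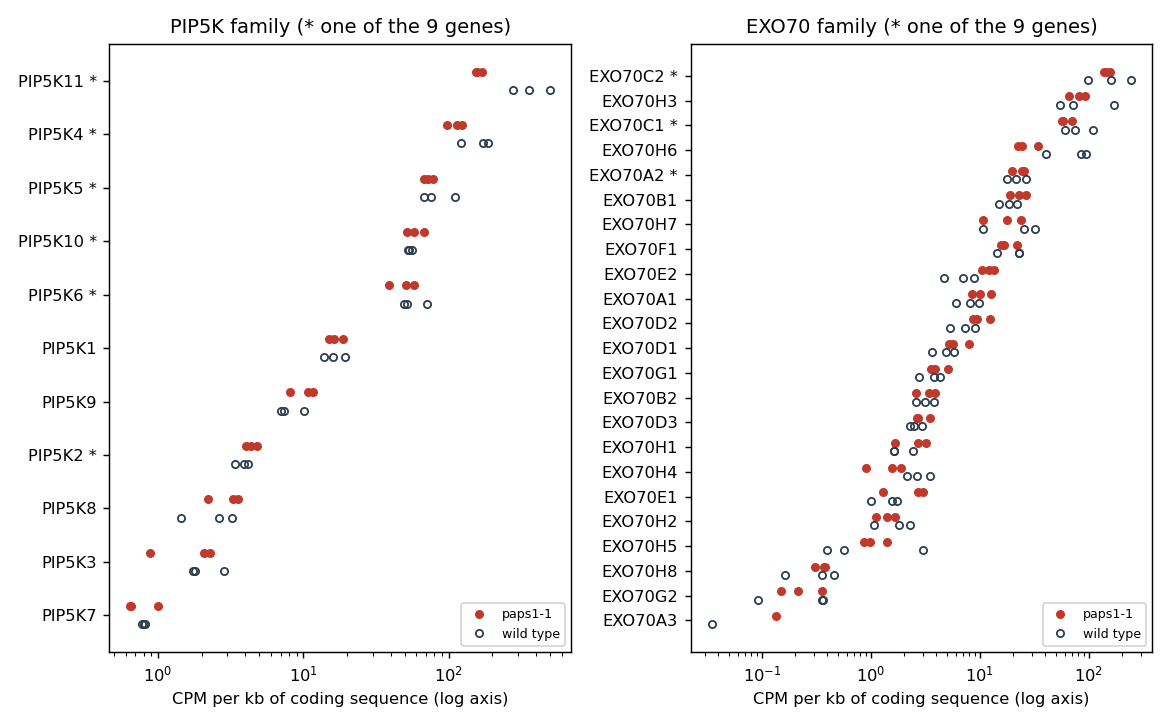
Level per kilobase of coding sequence (CPM per kilobase, log axis) of every PIP5K and EXO70 gene, with 1 point per library for paps1-1 and wild type; a library in which a gene had no read is not drawn. PIP5K11 leads the kinases at a mean of 270 CPM per kilobase and EXO70C2 leads the EXO70 genes at 157, and EXO70H3, at 89.1, lies above EXO70C1.

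The 6 kinases held 92.9% to 97.3% of the summed level per coding length of all 11 PIP5K genes in every library. PIP5K1 was the most abundant of the other 5 at a mean of 16.5 CPM per kilobase, above PIP5K2. Within this sum PIP5K11 took 32.9%, 31.2% and 34.2% in the paps1-1 libraries, against 47.9%, 45.8% and 52.4% in the wild-type libraries. PIP5K10 took 13.1%, 10.4% and 12.7% in the paps1-1 libraries, against 7.16%, 8.70% and 5.85% in the wild-type libraries. PIP5K5 took 15.2%, 14.4% and 15.0% in the paps1-1 libraries, against 10.1%, 11.3% and 11.6% in the wild-type libraries. These parts add up to a fixed total, so a smaller part for PIP5K11 enlarges the parts of the others. The 3 EXO70 genes held 47.5% to 53.0% of the sum over 23 EXO70 genes, and EXO70C2 alone held 32.0 ± 0.66% in paps1-1 and 30.0 ± 2.87% in wild type (SD, n = 3 libraries each).

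The wild-type libraries varied together in most of these genes. Of the 9 genes, 8 had their highest wild-type value in replicate 3, and 7 had their lowest wild-type value in replicate 2. A list of 25 pollen tube marker genes did the same, with a mean log2 CPM of 9.84, 9.81 and 9.76 in the paps1-1 libraries, against 10.1, 9.65 and 10.6 in the wild-type libraries. PIP5K2 did not follow them, and had its lowest wild-type value, 7.65 CPM, in replicate 3. The summed level of the 25 markers was 75341 to 87828 CPM in paps1-1 and 63377 to 142544 CPM in wild type. VGD1 alone had 20385.5 to 31958.9 CPM in paps1-1 and 20581.6 to 52269.8 CPM in wild type. Library factors from the pollen tube markers rest on their summed counts, so abundant markers weigh most in them. Of the 25 markers, 23 had a negative log2 fold change, with a median of -0.38, and 0 were called by edgeR, DESeq2 or limma-voom, while 4 had an unadjusted p under 0.05 in edgeR. The part that the amount of pollen tube RNA had in the PIP5K and EXO70 differences was not tested beyond this marker list, and in such whole tissue fewer cells of a type and less RNA per cell cannot be told apart.

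Set against the mean of the pollen tube markers in each library, PIP5K11 stood at -2.07, -2.16 and -2.12 log2 units in the paps1-1 libraries, against -1.25, -1.17 and -1.26 log2 units in the wild-type libraries. The 3 values of each genotype lay close together and the groups did not overlap, with a difference of -0.89 log2 units, and such separation was found for 13.2% of all tested genes. The other 8 genes overlapped between the genotypes on this scale. When the library factors themselves were taken from the pollen tube markers, the log2 fold change of PIP5K11 was -0.89, with an adjusted p of 0.242 in the edgeR quasi-likelihood test. Style and carpel markers, which mark the female tissue in the same samples, had a summed level of 88.9 to 133 CPM in paps1-1 and 57.3 to 110 CPM in wild type, and HEC1, HEC2 and CRC had no read. Of the 11 tested, 8 had a positive log2 fold change (7 with RLE size factors), with a median of 0.32; 0 were called by edgeR, DESeq2 or limma-voom, and 1 had an unadjusted p under 0.05 in edgeR. Sperm cell markers summed to 416 to 821 CPM in paps1-1 and 335 to 763 CPM in wild type, with GEX1 making up most of the sum. All 7 tested had a positive log2 fold change with a median of 0.75, 5 had an unadjusted p under 0.05 in edgeR, and 1, DAZ2, was called higher by edgeR, DESeq2 and limma-voom. DAZ2, a regulator of sperm cell development, had 7.18, 8.09 and 6.12 CPM in the paps1-1 libraries, against 1.24, 2.01 and 2.25 CPM in the wild-type libraries, with a log2 fold change of 1.95 ± 0.31 (SE) and an adjusted p of 0.00179 in the edgeR quasi-likelihood test. Photosynthesis genes summed to 62.1, 66.4 and 318 CPM in the paps1-1 libraries, against 92.4, 81.1 and 102 CPM in the wild-type libraries. Replicate 3 of paps1-1 stood apart here, with RBCS1A at 254 CPM, and the part of these other cell types in the results was not tested.

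**Figure D3:**
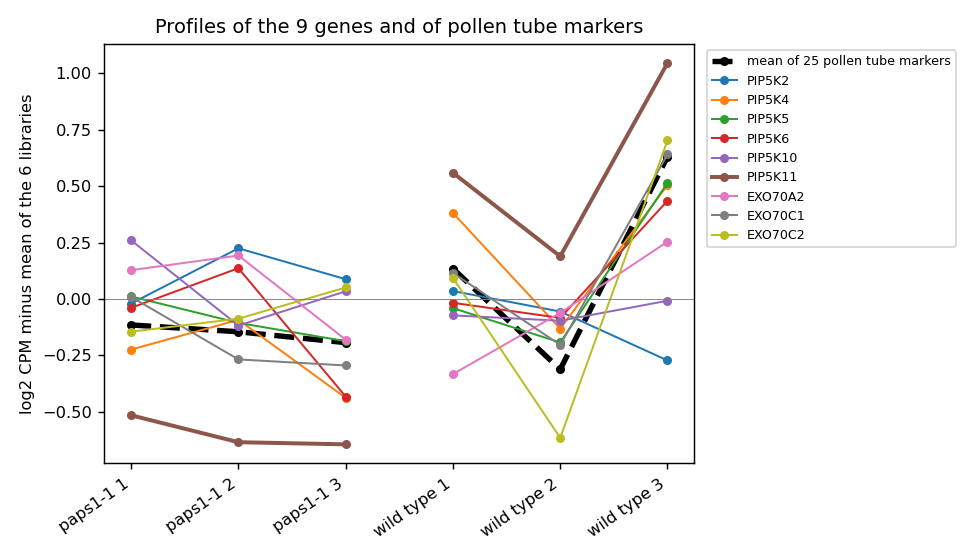
Level of each of the 9 genes minus its own mean over the 6 libraries (log2 CPM), by library, beside the mean of the 25 pollen tube markers; paps1-1 libraries are left of wild-type libraries, and the lines only join the points of a gene. EXO70C1 runs close to the marker mean, at a root mean square distance of 0.09 log2 units. PIP5K11 departs from it by 0.45, PIP5K2 by 0.43, PIP5K10 by 0.34 and EXO70A2 by 0.32.

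The genes of the surrounding pathway were read from the same fit. Over 7 lists with 90 genes, 87 were tested and 4 were called, 1 higher and 3 lower in paps1-1, or 4.60% beside 2.34% over all tested genes. PTEN1, a pollen phosphatase that removes phosphate from phosphoinositides, had 77.9, 72.6 and 61.6 CPM in the paps1-1 libraries, against 126, 141 and 308 CPM in the wild-type libraries. It was lower in every paps1-1 library, with a log2 fold change of -1.44 ± 0.34 (SE) and an adjusted p of 0.0328 in the edgeR quasi-likelihood test. Without wild-type replicate 3 its log2 fold change was -0.95 and its adjusted p in edgeR 0.0530, and without paps1-1 replicates 1, 2 and 3 the adjusted p was 0.0677, 0.124 and 0.139. With pollen tube marker factors its log2 fold change was -1.06 and its adjusted p in edgeR 0.194. The other 16 tested phosphatases were not called; among them 5PTASE11 had a log2 fold change of 0.69 ± 0.29 and SAC5 of -0.47 ± 0.28 (SE).

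PLC5, a phospholipase C of the kind that cleaves phosphatidylinositol bisphosphate, had 2.31, 2.77 and 2.02 CPM in the paps1-1 libraries, against 3.82, 6.41 and 8.21 CPM in the wild-type libraries. It was low in all libraries and lower in paps1-1, with a log2 fold change of -1.41 ± 0.34 (SE) and an adjusted p of 0.0393 in the edgeR quasi-likelihood test. Its adjusted p in edgeR was 0.101 and 0.147 without wild-type replicates 2 and 3, and 0.103, 0.0664 and 0.164 without paps1-1 replicates 1, 2 and 3. PLC5 was also not called by limma-voom (adjusted p = 0.0703), nor in edgeR with counts of one strand (adjusted p = 0.0580) or pollen tube marker factors (adjusted p = 0.857). In this list of 8 tested genes limma-voom called 0 and DESeq2 called 2, both lower, and 3 had an unadjusted p under 0.05 in edgeR. PLC6 was the most abundant phospholipase C of the list, at 166 ± 14.7 CPM per kilobase in paps1-1 and 175 ± 70.7 in wild type (SD, n = 3 libraries each). PLC8 had a log2 fold change of -1.03 ± 0.28 (SE) and PLC7 of 0.93 ± 0.27 (SE), with adjusted p of 0.0821 and 0.101 in the edgeR quasi-likelihood test, so neither passed.

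EXO70H6, another member of the EXO70 family, had 45.4, 41.5 and 63.3 CPM in the paps1-1 libraries, against 158, 75.0 and 172 CPM in the wild-type libraries. It was lower without overlap, with a log2 fold change of -1.43 ± 0.32 (SE) and an adjusted p of 0.0256 in the edgeR quasi-likelihood test. Its adjusted p in edgeR was 0.0558 and 0.0836 without wild-type replicates 1 and 3, and 0.0964 and 0.143 without paps1-1 replicates 1 and 2. EXO70H6 also lost the call in edgeR with counts of one strand (log2 fold change -1.10, adjusted p = 0.0787) and with pollen tube marker factors (log2 fold change -1.05, adjusted p = 0.261). EXO70H3 was the most abundant EXO70 gene outside the 3 described, at 79.8 ± 13.5 CPM per kilobase in paps1-1 and 98.4 ± 62.1 in wild type (SD, n = 3 libraries each), and it was not called. EXO70E2 had a log2 fold change of 0.81 ± 0.27 (SE) and EXO70H4 of -0.95 ± 0.34 (SE), with adjusted p of 0.175 and 0.237 in the edgeR quasi-likelihood test.

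SEC5B, a core exocyst subunit, was the only gene of these lists called higher. It had 42.5, 53.4 and 46.6 CPM in the paps1-1 libraries, against 18.4, 19.1 and 22.9 CPM in the wild-type libraries. Every paps1-1 value was above every wild-type value, with a log2 fold change of 1.24 ± 0.23 (SE) and an adjusted p of 0.00665 in the edgeR quasi-likelihood test. Without paps1-1 replicate 2 its log2 fold change was 1.12, with an adjusted p of 0.0532 in edgeR. SEC6, the most abundant other exocyst subunit, stood at 37.4 ± 6.94 CPM per kilobase in paps1-1 and 40.1 ± 5.98 in wild type (SD, n = 3 libraries each). SEC8 and EXO84C had log2 fold changes of -0.46 ± 0.25 and 0.49 ± 0.29 (SE), and neither passed.

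None of the 5 other PIP5K genes was called by edgeR, DESeq2 or limma-voom, and 0 had an unadjusted p under 0.05 in edgeR; PIP5K9, PIP5K3 and PIP5K8 had log2 fold changes of 0.32, -0.32 and 0.28. Of 8 other kinases that make phosphoinositides, 0 were called by edgeR, DESeq2 or limma-voom and 1 had an unadjusted p under 0.05, PI4Kbeta1, at a log2 fold change of -0.60 ± 0.23 (SE). FAB1D and FAB1C had log2 fold changes of 0.40 and 0.35. PI4Kalpha1, the most abundant of these, stood at 49.0 ± 6.99 CPM per kilobase in paps1-1 and 52.3 ± 11.6 in wild type (SD, n = 3 libraries each). Of 19 genes of clathrin-mediated endocytosis, 0 were called by edgeR or limma-voom and 1 was called lower by DESeq2, and 4 had an unadjusted p under 0.05 in edgeR. AP2A1 and AP2A2, which code for copies of the same large subunit of the endocytic adaptor, had log2 fold changes of -0.99 ± 0.26 and -0.82 ± 0.27 (SE). Reads shared between these copies were not assessed. PICALM5A, a clathrin adaptor of pollen tubes and the most abundant gene of that list, had a log2 fold change of -1.19 ± 0.42 (SE). The adjusted p of these 3 genes was 0.0570, 0.189 and 0.234 in the edgeR quasi-likelihood test.

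**Figure D4:**
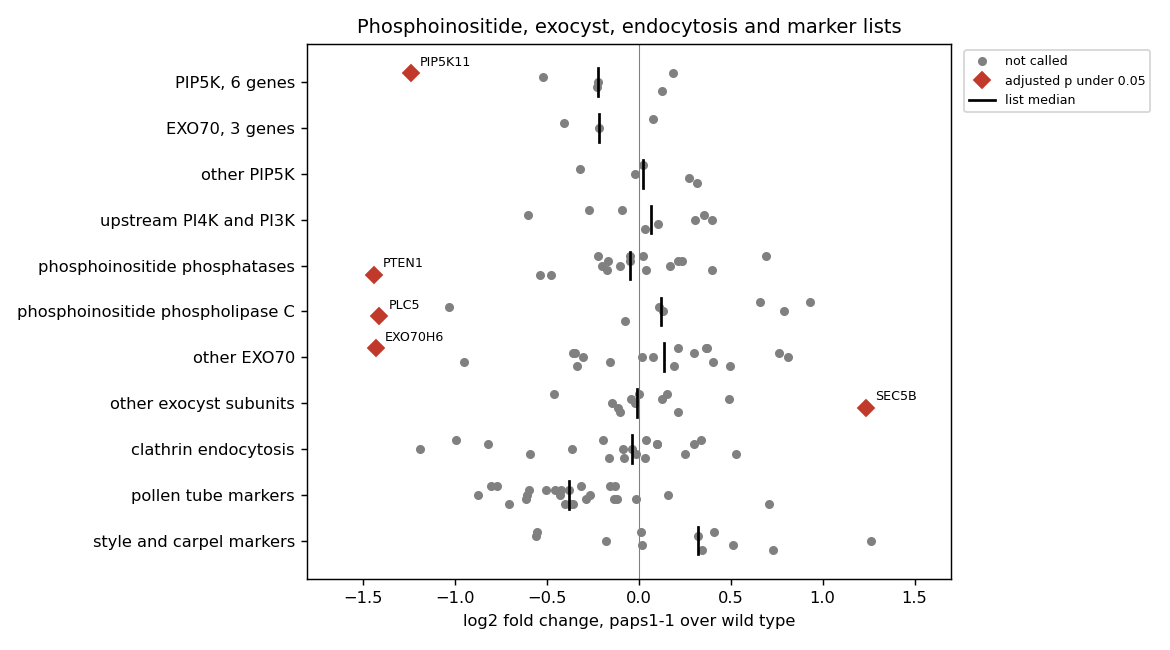
Log2 fold change of paps1-1 over wild type for each tested gene of the kinase, EXO70, pathway, pollen tube marker and style and carpel marker lists, with 1 point per gene and a bar at the list median. PIP5K11, PTEN1, PLC5 and EXO70H6 lie between -1.44 and -1.24, SEC5B lies at 1.24, and the pollen tube marker median lies at -0.38.

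The 2 genes nearest in profile to each of the 9 were found among 11950 genes, by the root mean square distance of log2 CPM centred over the 6 libraries. Nearest to PIP5K11 were AT1G01320, annotated as a tetratricopeptide repeat protein, at 0.07, and AVP1, a proton-pumping pyrophosphatase, at 0.08 log2 units, where the median gene lay at 0.71. For every other gene of the 9 the nearest gene lay closer, from 0.020 for PIP5K2 to 0.065 for EXO70C1. Their median genes lay at 0.32 to 0.49. Nearest to PIP5K4 were AT3G53950, related to glyoxal oxidases, and AT3G09540, annotated as pectin lyase-like. AT5G43560 and MC1 were nearest to PIP5K5, UBC32 and AT1G24330 to PIP5K6, MGT4 and RPL18AA to PIP5K10, and AT2G05920 and BLH7 to PIP5K2. For the EXO70 genes they were FH and AT1G26850 for EXO70A2, AT1G15470 and VGT1 for EXO70C1, and SR1 (AT5G01820) and HMG1 for EXO70C2. Among the 9 genes themselves PIP5K5 and EXO70C1 were the closest pair, at 0.11 log2 units, and PIP5K2 and PIP5K11 the farthest, at 0.77.

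AT1G01320 also lies near PIP5K11 on chromosome 1, as the outermost of the 10 tested genes considered on its side. Of the 20 tested genes around PIP5K11, 10 on each side, 2 were called, both lower in paps1-1. AT1G01320 had 146, 141 and 140 CPM in the paps1-1 libraries, against 339, 238 and 406 CPM in the wild-type libraries, with a log2 fold change of -1.20 and an adjusted p of 0.0383 in the edgeR quasi-likelihood test. The long noncoding RNA AT1G01448 had 10.7, 11.9 and 8.29 CPM in the paps1-1 libraries, against 31.9, 23.8 and 26.3 CPM in the wild-type libraries, with a log2 fold change of -1.42 and an adjusted p of 0.00379 in the same test. Both neighbours were separated between genotypes, as PIP5K11 was. Around the other 8 genes 0 or 1 of 20 neighbours was called. The share of tested genes called was 3.18% on chromosome 1 and 4.37% on chromosome 3, against 1.08% to 1.29% on the other chromosomes. PAPS1 lies on chromosome 1 too, as do SEC5B and EXO70H6, which are 2 of the 4 called pathway genes. Around SEC5B 1 of 20 neighbours was called, higher in paps1-1, and around EXO70H6 0. The part that position had in the levels of PIP5K11, SEC5B and EXO70H6 was not tested.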

How the data were processed

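RNA of pollen tube/style complexes was sequenced from 3 paps1-1 and 3 wild-type (Col-0) mRNA libraries on an Illumina HiSeq2000, per the labels' protocols. The authors deposited raw read counts per gene, made with STAR on TAIR10, per the submitters' processing notes; the STAR version, settings and read length are not given in the sources at hand. Counts that ignore strand were used, because reads fell evenly on both strands; reads of antisense or overlapping genes (PIP5K4 and EXO70C2 overlap a gene on the opposite strand) therefore cannot be told apart. Lines naming no gene (unmapped, multimapping, without feature, ambiguous) were left out; multimapping reads were 7.28% to 74.6% of a library. Of 33323 identifiers, 32835 matched the RefSeq TAIR10.1 annotation, which gave coding lengths and coding sequences; no genome coordinates are given.

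Genes were filtered with filterByExpr (minimum count 10) and tested with edgeR 4.0.16 (TMM factors, quasi-likelihood test, two-sided, Benjamini-Hochberg adjustment over 18317 genes, called under 0.05) in R 4.3.3, with genotype as the one term. SE is the log2 fold change divided by the root of the F statistic. Alternatives used DESeq2 1.42.0, limma 3.58.1 (voom), other library factors and filters, one strand's counts, a replicate block, and fits without each library. The fit was also run on simulated counts, with the same dispersion for all genes and no variation shared between genes. Its outcome is not given here, so it supports neither the calls nor their absence.

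The 9 genes and all lists were chosen with earlier results of these data known. Named genes are the 9, PAPS1, the called genes, the 3 of smallest p and the most abundant gene of each pathway list, and the 2 nearest profiles (mean log2 CPM of at least 2); the called neighbours of PIP5K11 and the marker genes HEC1, HEC2, CRC, GEX1, DAZ2 and RBCS1A were named after their values were seen.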

Additional observations from a re-analysis of the deposited data

How the results depend on the processing

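PIP5K11 was lower in paps1-1 under all 16 alternatives and kept its call under 7 of them. It lost the call with library factors from pollen tube markers, with counts of one strand (log2 fold change -1.17, adjusted p = 0.0503 in edgeR), with the replicate block, and without any single library other than wild-type replicate 2. It also lost it without wild-type replicate 3 and paps1-1 replicate 2 together (log2 fold change -0.99, adjusted p = 0.252). The cause was not tested.

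The number of the 9 genes called was 0 under pollen tube marker factors, counts of one strand and removal of both libraries, and 0 to 1 when each library was left out. Genes called over the whole table numbered 429, against 1042 with no filter, 216 with a filter of 5 CPM in 3 libraries, 237 without both libraries, 327 with pollen tube marker factors, 620 with DESeq2 and 333 to 456 when each library was left out. Pollen tube marker factors moved the median log2 fold change of all genes by 0.23 and the split of calls to 236 higher and 91 lower, against 213 higher and 216 lower; DESeq2 called 237 higher and 383 lower. Pathway genes called numbered 4, against 1 with pollen tube marker factors, 8 with no filter, 1 without both libraries and 0 to 5 when each library was left out. The order of levels kept 9 of 9 positions, except for 7 without paps1-1 replicate 3.

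Log2 fold changes turned direction for genes that were not called. With pollen tube marker factors PIP5K5 was at 0.11, PIP5K6 at 0.083 and EXO70C2 at 0.18. Without both libraries PIP5K5 was at 0.0049 and EXO70C2 at 0.15. EXO70C2 was at 0.13 without wild-type replicate 3, and EXO70A2 at -0.055 without wild-type replicate 1 and -0.01 without paps1-1 replicate 2. When each library was left out, EXO70A2 ranged from -0.055 to 0.21 and EXO70C2 from -0.49 to 0.13. The median of the 9 genes, -0.22 in the main fit, was -0.01 without wild-type replicate 3. It turned positive without both libraries, at 0.0049, and with pollen tube marker factors, at 0.11.

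Same-numbered libraries did not clearly vary together. The correlations of their deviations from the group means were -0.40, 0.15 and -0.23 for replicates 1, 2 and 3. The highest correlation, 0.47, was between wild-type replicate 1 and paps1-1 replicate 3. These values show no pairing by number, but with 3 libraries per group they cannot exclude one. With the replicate block 482 genes were called, PIP5K11 had a log2 fold change of -1.20 and an adjusted p of 0.0552 in edgeR, and 0 of the 9 genes were called. Depth limits the low genes most: PIP5K2 rested on 400 reads in paps1-1 and 439 in wild type.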
